A study of Mus musculus with 6 samples.

Results

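The 10 genes described here encode receptors of the epidermal growth factor (EGF) family (Egfr, Erbb2 and Erbb3), ligands that bind them (Ereg, Areg, Epgn, Btc, Hbegf and Tgfa) and the feedback inhibitor Errfi1. They were taken by name from 21000 protein-coding genes, and every p65 peak whose middle had its nearest annotated transcription start site at one of them was collected. This gave 19 of 8525 peaks in adult mice, 8 of 4169 in aged mice given a control IgG (aged/IgG) and 12 of 6014 in aged mice given blocking antibodies (anti-IL-17A/F). Peaks within 50 kb of a start site were counted as well, whichever gene they were assigned to.

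The p65 ChIP–seq was made from epidermal cells of C57bl/6J mice, released from skin with trypsin. Adult mice were untreated, and the methods give an age of 17 to 25 weeks for the adult mice used throughout, without a separate age for the ChIP–seq. Aged mice were injected intraperitoneally for 12 weeks, from 73 weeks of age, with a control IgG or with antibodies that block IL-17A and IL-17F. Adult and aged mice thus differ in both age and injection, which cannot be told apart. The 4 mice of a condition were merged before peak calling, so there is 1 list of peaks per condition, no spread between animals and no test between conditions. A difference in the mix of epidermal cells and a difference in binding within each cell cannot be told apart in such pools. The genes Nfkbia, Tnfaip3, Nfkb2 and Tnip1, which NF-κB is known to induce, had a peak above percentile 98.8 of fold enrichment in every list. Of 6 keratinocyte genes, 6 had a peak in adult, 4 in aged/IgG and 5 in anti-IL-17A/F. All 8525 peak names in the list labelled adult begin with the word Treated, as do those of anti-IL-17A/F, whereas the labels of the sample and of its list both say adult. The lists were used as labelled. If these lists were exchanged, the counts and fold enrichments given for them would change places, those for aged/IgG would stay as they are, and the ratios between conditions would turn as given with them.

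EGF family ligands are made as membrane-bound precursors, shed from the cell surface by metalloproteases, and then bind receptors on the same or neighboring cells. Egfr, Erbb2 and Erbb3 pair with each other when a ligand binds, and the pairs activate the RAS–MAPK and PI3K–AKT cascades. In epidermis this signaling drives keratinocyte proliferation and migration and restrains terminal differentiation. NF-κB, of which p65 is a subunit, binds DNA at short κB motifs.

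The κB motif, searched on both strands, was found in the peaks of 5 of the 19 sites, each time in the adult peak. Over the whole adult list, 34.9% of peaks held it. These 5 stretches are shown because they are the places where a p65 peak at an EGF family gene coincided with the letters p65 is known to prefer. Sequences are from the GRCm38 assembly (mm10), on the plus strand, with the match in capitals. The matches lie in intron 1 of Egfr (chr11:16760244-16760313), in intron 1 of Erbb2 (chr11:98419255-98419324), in the 3′ untranslated part of exon 5 of Ereg (chr5:91091665-91091694, 10 bases on either side), upstream of Areg (chr5:91114077-91114146) and upstream of Tgfa (chr6:86182680-86182749).
Egfr: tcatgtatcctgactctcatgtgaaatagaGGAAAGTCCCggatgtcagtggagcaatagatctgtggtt
Erbb2: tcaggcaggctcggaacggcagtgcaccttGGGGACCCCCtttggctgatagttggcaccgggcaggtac
Ereg: aaccttaggtGGAATCTCCCtggaacacat
Areg: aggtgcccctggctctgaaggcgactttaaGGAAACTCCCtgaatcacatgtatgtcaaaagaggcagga
Tgfa: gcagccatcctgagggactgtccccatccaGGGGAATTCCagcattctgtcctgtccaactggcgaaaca

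The promoter peak of Epgn held no κB motif. It held a match to a relaxed form of the motif (GG and CC around 6 bases, 2 purines, 2 of any kind and 2 pyrimidines), a form added after the data were seen. Relaxed matches that were not κB matches also lay in the adult peaks at the start sites of Erbb2 and Btc, 12 bp and 26 bp from the summits. Of all adult peaks, 45.2% held a relaxed match anywhere in the peak, those with the κB motif included. The match at Epgn is shown with 30 bases on either side (chr5:91027178-91027247). The strongest Epgn peak in adult and aged/IgG lay 10.4 kb downstream of the start site and held neither form. The 60 bases on either side of its adult summit are shown in lower case throughout, for contrast (chr5:91037844-91037964).
Epgn promoter: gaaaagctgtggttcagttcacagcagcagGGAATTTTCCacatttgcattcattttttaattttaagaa
Epgn downstream: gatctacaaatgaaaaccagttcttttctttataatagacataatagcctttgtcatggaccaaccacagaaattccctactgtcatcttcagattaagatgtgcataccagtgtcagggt

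A p65 peak was assigned to all 10 genes in adult, to 7 in aged/IgG and to 8 in anti-IL-17A/F. Over all protein-coding genes the shares were 23.1%, 12.9% and 17.4%, respectively. The 10 genes were chosen with earlier results of these data known, so the gap to all genes cannot serve as a test. Egfr, Erbb2, Erbb3, Ereg, Epgn, Hbegf and Tgfa had a peak in every condition, a pattern seen in 45.3% of the protein-coding genes with any peak. Btc had one in adult and anti-IL-17A/F, as 17.1% of such genes did. Areg and Errfi1 had one in adult alone, as 25.7% did. Genes that lie far from other start sites collect more peaks, so the same share was also taken within deciles of the length of genome nearest to each gene. Averaged over the deciles of the 10 genes, it was 24.9% in adult, 14.4% in aged/IgG and 19.2% in anti-IL-17A/F. The length nearest to a gene ran from 19.2 kb for Erbb2 to 221 kb for Egfr. 

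**Figure D1:**
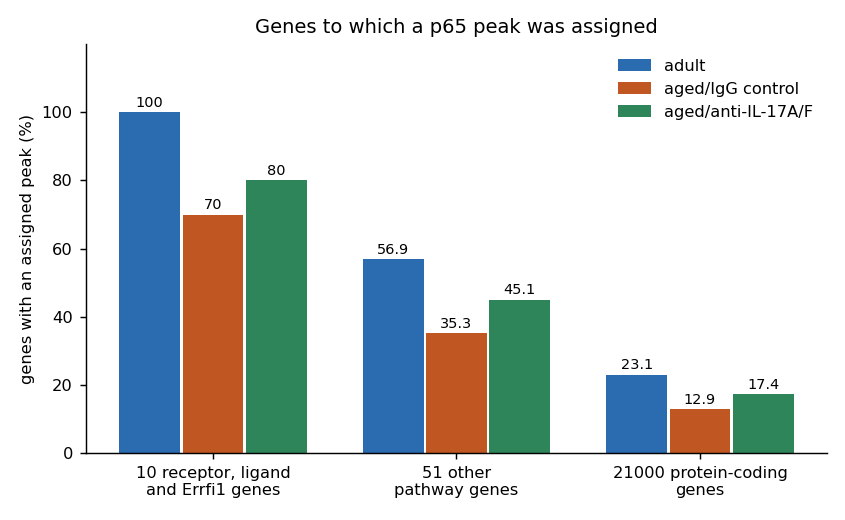
Bars give the percentage of genes with an assigned p65 peak in adult, aged/IgG and anti-IL-17A/F, for the 10 receptor, ligand and Errfi1 genes, for 51 other genes of the pathway and for 21000 protein-coding genes. In each condition the bar of the 10 genes is the highest of the groups and that of all genes the lowest, and in each group the aged/IgG bar is the lowest. The 10 and the 51 genes were chosen with earlier results of these data known.

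A peak lay within 50 kb of a start site for 10 of the genes in adult, 8 in aged/IgG and 9 in anti-IL-17A/F, against 43.4%, 27.5% and 35% of all protein-coding genes. In aged/IgG, no peak lay within 50 kb of Btc or Errfi1, whose nearest peaks were 207 kb and 255 kb away. Areg was counted in both aged lists through the peak assigned to Ereg, 47.9 kb from the Areg start site and just inside the limit. Of the Egfr peaks, the one at 48.6 kb lay just inside and the one at 78.6 kb outside.

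All 8 peaks of aged/IgG and all 12 of anti-IL-17A/F at these genes overlapped an adult peak, by at least 1 bp, so that the 3 lists came down to 19 sites. Over the whole lists, 93.3% of aged/IgG peaks and 85.6% of anti-IL-17A/F peaks overlapped an adult peak. In the other direction, 8 of 19 adult peaks were overlapped in aged/IgG (42.1%, 95% Wilson interval 23.1 to 63.7%, counting error only), against 45.5% of all adult peaks. A larger number, 12 of the 19, was overlapped in anti-IL-17A/F (63.2%, 41.0 to 80.9%), against 60.4% over the whole adult list. Within deciles of fold enrichment, the corresponding shares of all adult peaks averaged 47.7% for aged/IgG and 61.5% for anti-IL-17A/F. The shares at the EGF family genes were thus close to those of peaks in general. Between the aged lists, all 8 aged/IgG peaks were overlapped in anti-IL-17A/F (86.6% over the whole list), and 8 of 12 peaks the other way (66.7%, against 59.9%).

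**Figure D2:**
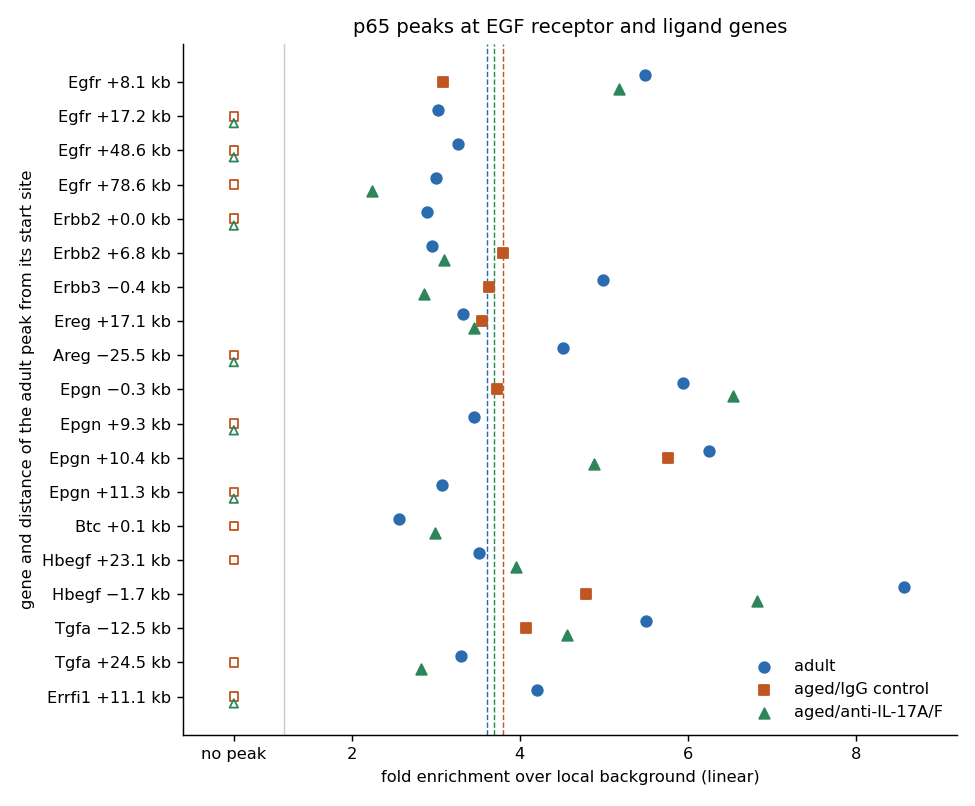
Each horizontal position gives the fold enrichment over the local background (linear scale) of a p65 peak at 1 of the 19 sites, named by gene and distance from the start site, in adult (circles), aged/IgG (squares) and anti-IL-17A/F (triangles). Open symbols at the left mark lists without a peak there, and dashed lines mark the median of each whole list (3.60, 3.80 and 3.69). A total of 8 sites have 3 filled symbols, 4 lack only aged/IgG and 7 have only the adult symbol.

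The strength of a peak is given here as the fold enrichment over the local background, with its percentile among all peaks of its list. A longer list holds more weak peaks, so a percentile describes a peak within its own list and was not used to compare conditions. The peaks at EGF family genes were of ordinary strength, with a median percentile of 44.7 in adult, 48.8 in aged/IgG and 49.8 in anti-IL-17A/F. Only the adult peak upstream of Hbegf lay in the strongest decile of its list. The number of peaks called differed between the lists, and this bears on every count above. With each list reduced to its strongest peaks, as many as the 4169 of the smallest list (4171 with ties in anti-IL-17A/F), 8 peaks at these genes were left in adult, 8 in aged/IgG and 7 in anti-IL-17A/F. These lay at 7, 7 and 5 genes, where 13.1%, 12.9% and 13.0% of all protein-coding genes had a peak. The higher adult count therefore rested on peaks below the strongest 4169. Areg and Errfi1 were among the 7 adult genes that remained, and Erbb2, Ereg and Btc were not.

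Among the receptors, Egfr, which binds most ligands of the family, had 4 peaks in adult, all in intron 1. The site 8.1 kb downstream of the start (chr11:16760032-16760515) had a fold enrichment of 5.49 in adult, 3.09 in aged/IgG and 5.17 in anti-IL-17A/F. These peaks were at percentiles 80.9, 22.2 and 77.1 of their own lists. The fold enrichment was thus low in aged/IgG and similar in the other conditions. The summits of the lists fell within 41 bp of each other, and the κB match shown above lay 27 bp from the adult summit and 14 bp from each aged summit. The other Egfr peaks were weaker. The peak at 17.2 kb had a fold enrichment of 3.03 and that at 48.6 kb one of 3.26, both in adult alone. At 78.6 kb, the adult peak was at percentile 25.5 of its list and the anti-IL-17A/F peak at percentile 1.33, with a fold enrichment of 2.24.

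Erbb2, the receptor without a ligand of its own, had a peak at the start site in exon 1 in adult alone (chr11:98412303-98412715), with a fold enrichment of 2.89. In intron 1, 6.8 kb downstream (chr11:98418956-98419433), the enrichment was 2.95-fold in adult, 3.80 in aged/IgG and 3.10 in anti-IL-17A/F. Here aged/IgG had the highest fold enrichment. The κB match was 16 bp from the adult summit, and 118 bp and 114 bp from the aged summits. Erbb3, which has little kinase activity and signals through its partners, had a single site 0.4 kb upstream of its start (chr10:128589721-128590352). It was enriched 4.99-fold in adult, 3.63 in aged/IgG and 2.86 in anti-IL-17A/F, so that both aged lists were below adult and anti-IL-17A/F was the lowest. No κB motif was found in it.

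**Figure D3:**
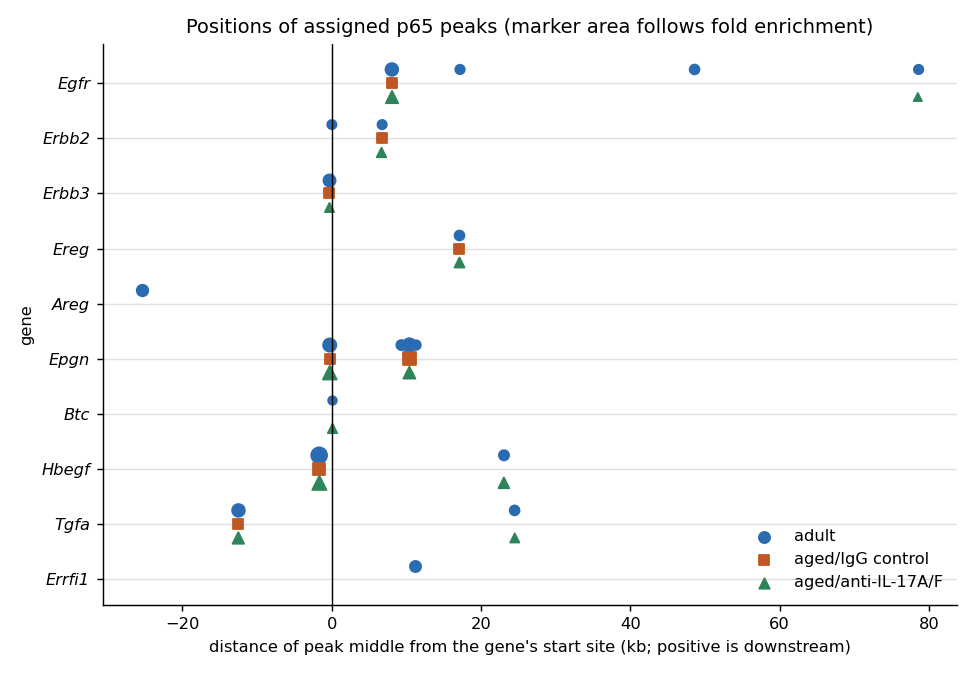
Each symbol is a p65 peak assigned to the gene on its line, placed by the distance of its middle from the start site in kb (positive is downstream), for adult (circles), aged/IgG (squares) and anti-IL-17A/F (triangles). Symbol area follows fold enrichment. Peaks ranged from 25.5 kb upstream, at Areg, to 78.6 kb downstream, at Egfr.

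The ligand genes Epgn, Ereg, Areg and Btc form a cluster of 375 kb on chromosome 5 with no other protein-coding gene between them. It held 7 peaks in adult, 3 in aged/IgG and 4 in anti-IL-17A/F. Epgn, which encodes epigen, had the most. Its promoter peak, 0.3 kb upstream of the start (chr5:91027042-91027488), had a fold enrichment of 5.94 in adult, 3.73 in aged/IgG and 6.53 in anti-IL-17A/F. The fold enrichment was again lowest in aged/IgG. The relaxed match shown above lay 35 bp, 61 bp and 69 bp from the respective summits. At the site 10.4 kb downstream (chr5:91037656-91038193) the enrichment reached 6.25-fold in adult, 5.76-fold in aged/IgG and 4.89-fold in anti-IL-17A/F, a different order from that at the promoter. In adult this peak was flanked by weaker ones at 9.3 kb and 11.3 kb, with fold enrichments of 3.45 and 3.07, that were called in neither aged list.

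Ereg encodes epiregulin. Its site at the end of the gene, 17.1 kb from the start (chr5:91091517-91091898), was the most even of those found in every condition, with fold enrichments of 3.33 in adult, 3.55 in aged/IgG and 3.45 in anti-IL-17A/F. The κB match was 5 bp, 14 bp and 12 bp from the respective summits. Areg encodes amphiregulin, an autocrine growth factor of keratinocytes. Its only peak lay 25.5 kb upstream, between Ereg and Areg (chr5:91113931-91114335), and was called in adult alone with a fold enrichment of 4.51, at percentile 70.3, and a κB match 23 bp from the summit. Among adult peaks of any gene with a similar strength (the same decile), 74.2% were overlapped in aged/IgG and 90.04% in anti-IL-17A/F. Btc, which encodes betacellulin, had a peak in exon 1 at its start site (chr5:91402642-91403143), with a fold enrichment of 2.56 in adult and 2.99 in anti-IL-17A/F, among the weaker peaks of both lists at percentiles 7.81 and 22.9.

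**Figure D4:**
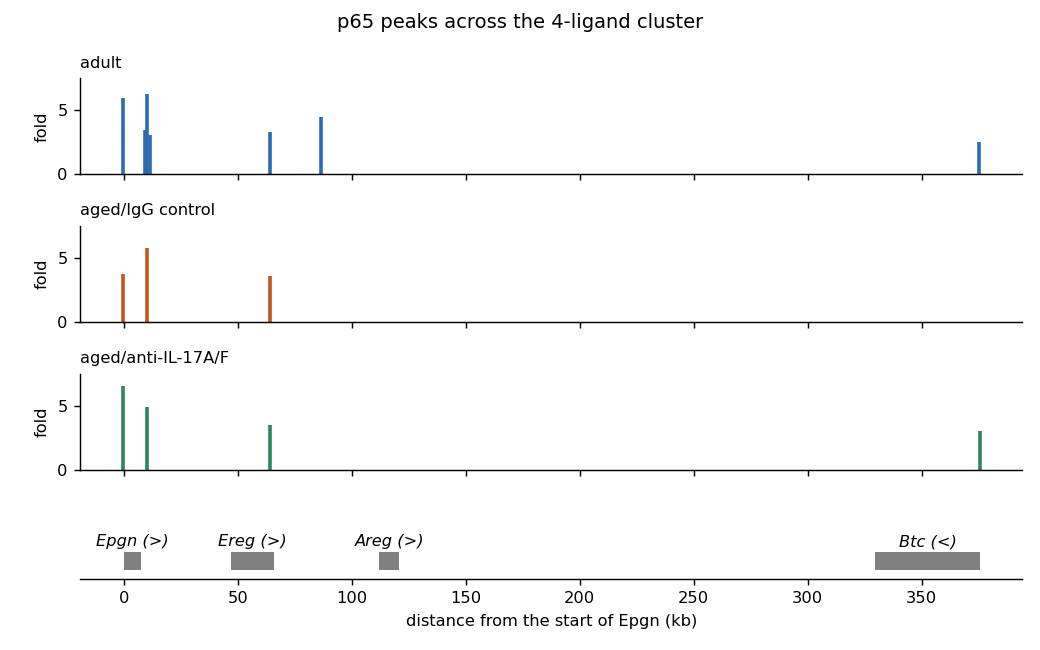
Vertical lines give the fold enrichment (linear, from 0) of p65 peaks across the ligand cluster against the distance from the start of Epgn in kb, for adult, aged/IgG and anti-IL-17A/F from top to bottom. Gray boxes mark the genes and the signs their direction. The peaks at the Epgn promoter, 10.4 kb downstream of it and at the end of Ereg appear in every list, the peak upstream of Areg in adult alone, and the peak at Btc in adult and anti-IL-17A/F.

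Hbegf encodes heparin-binding EGF-like growth factor, which keratinocytes release on wounding. Its site 1.7 kb upstream of the start (chr18:36517184-36517763) was the strongest of the 19 in adult and in anti-IL-17A/F. It was enriched 8.56-fold in adult, 4.78 in aged/IgG and 6.82 in anti-IL-17A/F. Aged/IgG was the lowest and adult the highest. A further site 23.1 kb downstream, beyond the end of the gene (chr18:36492539-36492926), had a fold enrichment of 3.52 in adult and 3.95 in anti-IL-17A/F and was not called in aged/IgG. Neither site held the κB motif. The protein-coding genes whose strongest peaks were most like that of Hbegf, by the summed difference in percentile over the 3 lists among 2389 genes, were Psme2 (1.82), Dusp7 (2.64) and Ubxn2a (3.10).

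Tgfa encodes transforming growth factor-α, a main autocrine ligand of keratinocytes. Its upstream site, 12.5 kb from the start (chr6:86182469-86182971), had a fold enrichment of 5.49 in adult, 4.08 in aged/IgG and 4.56 in anti-IL-17A/F. The κB match was 19 bp, 37 bp and 12 bp from the respective summits. In intron 1, 24.5 kb downstream (chr6:86219537-86219917), the fold enrichment was 3.30 in adult and 2.82 in anti-IL-17A/F, with no peak in aged/IgG. Errfi1 encodes a protein that binds the kinase domain of Egfr and blocks it. Its only peak was in intron 3, 11.1 kb downstream of the nearest start site (chr4:150865968-150866448), in adult alone, with a fold enrichment of 4.21 at percentile 65.2. In the same decile, 55.4% of all adult peaks were overlapped in aged/IgG and 75.9% in anti-IL-17A/F. The nearest anti-IL-17A/F peak to Errfi1 was 110 kb away.

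For sites in every list, fold enrichments were set against each other as log2 ratios, beside the ratios of all shared peaks. From adult to aged/IgG, the median over 3879 shared peaks was −0.30, and 78.5% of them were below 0. The 8 EGF family sites had a median of −0.44, with 6 below 0. Hbegf (−0.84), Egfr (−0.83) and the Epgn promoter (−0.67) were at percentiles 7.76, 8.20 and 15.8 of all shared peaks, and the Erbb2 intron (0.36) at percentile 96.2. From aged/IgG to anti-IL-17A/F, the median over 3612 shared peaks was 0.14, and that of the 8 sites 0.06, with 4 below and 4 above 0. The Epgn promoter (0.81), Egfr (0.74) and Hbegf (0.51) were at percentiles 97.0, 95.5 and 85.2. Erbb3 (−0.35) and the Erbb2 intron (−0.29) were at percentiles 7.59 and 9.86. Both ratios use the aged/IgG list, so a low value there moves them in opposite directions. Sites at Egfr, Hbegf and the Epgn promoter thus stood low in the first distribution and high in the second, while the 8 sites as a group had no common direction in the second. The tallies over the 8 sites depend on the labels of the lists. With adult and anti-IL-17A/F exchanged, 4 of the 8 sites were below 0 and 4 above in the first step (median −0.06, against −0.14 over all shared peaks), and 6 were above 0 in the second (median 0.44, against 0.30). At Egfr, Hbegf and the Epgn promoter aged/IgG was the lowest of the lists, so the exchange could not change the signs of their ratios. Egfr then stood at −0.74 and 0.83, Hbegf at −0.51 and 0.84, and the Epgn promoter at −0.81 and 0.67. Erbb3 changed sign in both steps, to 0.35 (percentile 92.2) and 0.46 (percentile 66.2). The Erbb2 intron stood at 0.29 (percentile 89.9) and −0.36 (percentile 3.60).

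**Figure D5:**
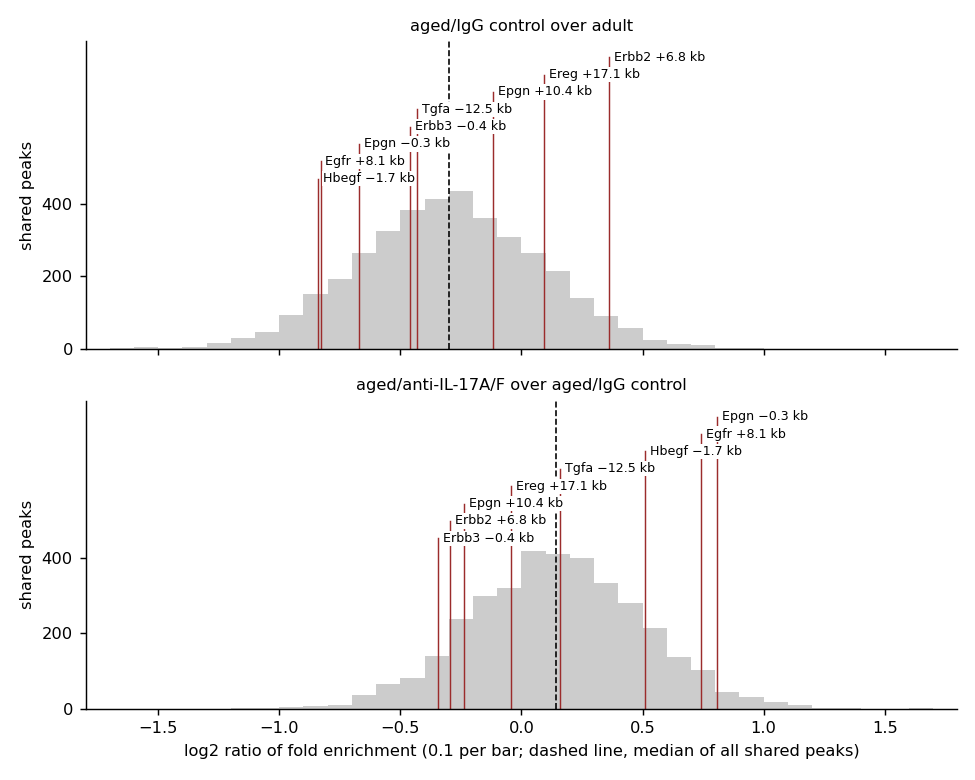
Gray bars count peaks shared by a pair of lists by the log2 ratio of their fold enrichments, for aged/IgG over adult (top) and anti-IL-17A/F over aged/IgG (bottom). Vertical lines mark the 8 EGF family sites found in every list and the dashed line the median of all shared peaks. Egfr, Hbegf and the Epgn promoter lie left of the dashed line at the top and right of it at the bottom.

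The κB motif lay within 100 bp of the summit in 5 of 19 adult peaks at these genes, 3 of 8 aged/IgG peaks and 3 of 12 anti-IL-17A/F peaks, against 28.5%, 37.8% and 34.9% of all peaks. Of the 5 sites with the motif in a peak, 4 (Egfr, Erbb2, Ereg and Tgfa) were called in every list and Areg in adult alone, and of the 14 sites without it 4 were called in every list. Over all adult peaks, 58.9% of those with the motif and 31.5% of those without it were called in every list. The motif was absent from the 4 adult peaks within 1 kb of a start site, at Erbb2, Erbb3, Epgn and Btc, and 30.5% of all adult peaks at that distance held it anywhere in the peak. A match is a description of the letters and not of binding, and its absence says only that these letters are not in the peak. The AP-1 motif TGAGTCA, sought on both strands in whole peaks, was found in 6 adult peaks (2 at Egfr and 1 each at Erbb3, Ereg, Epgn and Tgfa), 1 aged/IgG peak and 3 anti-IL-17A/F peaks. Over all peaks its shares were 17.9%, 18.7% and 19.7%. Only at Ereg did a site hold both motifs.

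Peaks within 50 kb of a start site that were nearest to a gene outside the family were found around Erbb2, Erbb3 and Hbegf. Around Erbb2 they were assigned to Pnmt and to Grb7, which encodes an adaptor that binds the receptor, 37.6 kb away, with a fold enrichment of 3.01 in adult, 3.07 in aged/IgG and 2.95 in anti-IL-17A/F. Around Erbb3 they were assigned to Zc3h10, Rpl41, Pa2g4 and Rps26, all within 1 kb of those genes' own start sites. Pa2g4 had its peak in every list, Zc3h10 and Rpl41 in adult and aged/IgG, and Rps26 in adult alone. Around Hbegf they were assigned to Slc4a9, in adult alone, and to Ankhd1. The peak at Ankhd1 (6.40 in adult, 6.06 in aged/IgG and 6.97 in anti-IL-17A/F) exceeded the Hbegf peak in both aged lists.

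A further 51 genes of the pathway were also chosen with earlier results of these data known. Of these, 29 had an assigned peak in adult, 18 in aged/IgG and 23 in anti-IL-17A/F (56.9%, 35.3% and 45.1%). The shares of all protein-coding genes were 23.1%, 12.9% and 17.4%. Within deciles of the length nearest to each gene, the shares of all genes averaged 25.3%, 14.7% and 19.7% for these 51. None of the 5 other ligands, Egf and the neuregulins Nrg1 to Nrg4, had one in any list, a count too small to set apart from those shares, and 1 of them had a peak within 50 kb in adult and in aged/IgG. The receptor Erbb4 had one in adult alone, 102 kb upstream, with a fold enrichment of 2.90. The genes that release ligands from the membrane had peaks in 4, 2 and 3 of 4 cases. Rhbdf2, which escorts the metalloprotease Adam17 to the cell surface, had the strongest, with fold enrichments of 13.6 in adult, 9.33 in aged/IgG and 9.24 in anti-IL-17A/F. Adam17 itself had 2.85 in adult and 2.81 in anti-IL-17A/F with no aged/IgG peak, and Adam10 had 2.50 in adult alone.

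Adaptors and cascade genes had peaks in 12, 6 and 9 of 23 cases, beside 23.1%, 12.9% and 17.4% of all protein-coding genes. Plcg1, encoding a phospholipase recruited by Egfr, had 12.2 in adult, 7.45 in aged/IgG and 7.29 in anti-IL-17A/F, and Pik3r1 had 8.04, 4.61 and 6.28 at a peak 269 kb upstream. Grb2, Hras and Map2k2 had weak peaks in adult and anti-IL-17A/F (2.65 and 3.13, 3.02 and 2.97, and 2.56 and 2.38), whereas Sos1, Braf and Pik3r2 had peaks in adult alone (2.84, 3.33 and 5.06). Inhibitors had peaks in 9, 7 and 8 of 15 cases. Cbl, a ubiquitin ligase that removes Egfr, had fold enrichments of 11.1 in adult, 8.65 in aged/IgG and 6.61 in anti-IL-17A/F, 34.3 kb downstream of its start. Lrig1, an Egfr inhibitor and stem cell marker of the epidermis, had 9.98, 8.30 and 8.09 at a peak 79.9 kb upstream in adult, and Ptpn1 had 10.2, 5.74 and 6.84 at a peak 75.3 kb upstream. Cblb was found in adult and anti-IL-17A/F (4.30 and 3.36) and Socs4 in adult alone (3.16). The early response genes Egr1, Myc and Ier3 had peaks in every list. With equal numbers of peaks per list, the adult count of the 51 genes was 18, the same as in aged/IgG.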

How the data were processed

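The 3 deposited peak lists were analyzed, 1 each for adult, aged/IgG and anti-IL-17A/F, and the 3 inputs are not used here. Reads were trimmed by the authors with Trimmomatic and aligned to mm10, the 4 mice of a condition were merged, deduplicated and downsampled to an equal depth, and MACS2 was run on each pool (q value 0.01). Use of the inputs in peak calling is not given in the sources used here. Each deposited peak has a summit, a fold enrichment (the ratio of its signal to that of the surrounding background), a p-value and a q-value, both as −log10, and an integer score. Reads per peak are unknown from these lists, and merging removes the spread between mice, so that a peak close to the q limit may be called in one pool and missed in another at nearly the same signal.

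Peaks were assigned from their middle to the nearest start site of curated RefSeq transcripts (GRCm38). Overlap was at least 1 bp. The κB counts per list were made within 100 bp of the summit. Whole peaks were searched for the motifs of single sites, of peaks near start sites, for the sharing between lists and for AP-1. Assignment, overlap and motif steps were tested on simulated data. Wilson intervals at 95% cover counting error only. Python 3.11.15, numpy 2.4.6, pandas 2.3.3, pysam 0.24.0 and matplotlib 3.10.9 were used. The 10 genes and the lists were chosen with earlier results of these data known. Named beside the 10 were pathway genes with a peak in some but not all lists or in the strongest 10% of a list, the 3 genes most like the one with the strongest peak, and genes assigned a peak within 50 kb. Egf, Nrg1 to Nrg4, Egr1, Myc and Ier3 fell outside this rule and were named because their whole groups had a peak in no list or in every list. Alternatives were stricter q values, equal numbers of peaks, other assignment rules, windows, overlaps and motifs, and exchanged lists.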

Additional observations from a re-analysis of the deposited data

How the results depend on the processing

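Of 120 values under alternatives, 109 stayed within 1.5-fold of the count reported. With equal numbers of peaks per list (the strongest 4169), peaks assigned to the 10 genes numbered 8 in adult and 7 in anti-IL-17A/F, genes with a peak numbered 5 in anti-IL-17A/F, and other pathway genes with a peak numbered 18 in adult. Under the same setting, peaks shared by adult and anti-IL-17A/F numbered 5 (5 of 8 adult and 5 of 7 anti-IL-17A/F peaks, against 74.2% and 74.3% of all peaks), and 6 of 8 aged/IgG peaks overlapped an adult one (73.4% of all peaks). With the looser pattern of GGG and CC 5 bases apart, the peaks with a motif numbered 12 in adult, 6 in aged/IgG and 7 in anti-IL-17A/F (67.9%, 72.8% and 70.3% of all peaks). With the relaxed κB motif, chosen after seeing the data, they numbered 8 in adult and 5 in anti-IL-17A/F (34.7% and 40.9% of all peaks). Stricter q values left the counts of peaks, genes and overlaps they were tried on within 1.5-fold, as did other rules of assignment for peaks and genes, windows of 20 kb and 100 kb for genes, and an overlap of 50% for overlaps. The alternatives for overlaps other than that of adult peaks in aged/IgG were chosen after seeing the data. With adult exchanged for anti-IL-17A/F, the peaks overlapped in aged/IgG still numbered 8, of 12 in place of 19. No paired analysis was possible because each condition has 1 pooled list. The absence of a peak is limited by the calling threshold, and the depth behind a single peak is unknown.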
